A study of Saccharomyces cerevisiae with 222 samples.

Results

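The genes described here are the 9 genes of the prospore membrane machinery that the study's tables carry under the names SPO21, MPC54, SPO74, ADY3, ADY4, SSP1, DON1, SPO14 and SPO20. They were chosen by name from the 5818 genes of SK1, a fast-sporulating laboratory strain of budding yeast. The rule for the choice used no measured value, though earlier results of these data were known. The symbol of SSP1 had been altered by a spreadsheet program in the deposited table, and its row was matched by the systematic name YHR184W. All 9 genes passed the filter on low counts in each of the 4 experiments.

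Spores of budding yeast form when a new double membrane, the prospore membrane, grows around each haploid nucleus in the second meiotic division. It starts on the meiotic outer plaque, a coat that replaces the mitotic outer plaque on the cytoplasmic face of the spindle pole body. Mpc54 and Spo21 (also called Mpc70) are the main proteins of this plaque, and Spo74 and Ady4 are further parts of it. Vesicles dock at the plaque and fuse through Spo20, a SNARE protein of the SNAP-25 family that takes over from Sec9 in meiosis, and this step needs Spo14, a phospholipase D that makes phosphatidic acid. The rim of the growing membrane carries a ring, the leading edge protein coat, which contains Ssp1, Ady3 and Don1. Most genes of this kind are middle meiotic genes under the activator Ndt80, which binds the middle sporulation element (MSE). Early meiotic genes are instead bound by Ume6 at a GC-rich site called URS1. Ume6 represses them in growing cells and is thought to activate them in meiosis once it is joined by Ime1.

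RNA was measured by poly(A) RNA-seq in 4 experiments with 3 libraries in each of 74 conditions. In the mitotic experiment, growing cells in rich medium carried Ume6 with an auxin-inducible degron (UME6-AID-3V5) and the estradiol-dependent activator lexA-ER-B112. Ume6 depletion cells also carried the F-box receptor gene 4xlexO-OsTIR, and control cells lacked it. β-estradiol was given at -30 min (40 µM in the labels, in nanomolar amounts in the study's methods) and auxin (200 µM) at 0 min, and both strains were sampled at -30, 0, 15, 30, 60 and 120 min. Cells of ume6Δ and WT were sampled at a single time, before any treatment by the study's methods although the labels give one. In the meiotic experiment, cells carried UME6-AID-3V5, LexA-ER-GAL4AD and copper-inducible alleles pCUP1-IME1 and pCUP1-IME4. Depletion cells again differed from control cells by an OsTIR transgene (8xlexO-OsTIR). They received β-estradiol (5 nM) with auxin (200 µM) at 0.5 h in sporulation medium and CuSO4 (50 µM) after the 2 h sample, and were sampled 6 times between 0.5 and 6 h (0.5, 2, 2.5, 3, 4.5, and then 6 h). By the study's account, Ume6 protein was only partly removed in meiosis.

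The rescue experiment set 4 forms of UME6 against 2 forms of IME1 at 0, 2, 4 and 6 h in sporulation medium. The forms of UME6 were UME6(T99N)-3V5-aGFP, which carries a single-residue change that weakens the binding of Ime1 and also a nanobody against GFP, then UME6(T99N)-3V5 without the nanobody, UME6-3V5, and untagged UME6. The forms of IME1 were sfGFP-IME1, which the nanobody can capture, and untagged IME1. The tethered strain is sfGFP-IME1; UME6(T99N)-3V5-aGFP, and its counterpart IME1; UME6(T99N)-3V5-aGFP has the nanobody but no GFP for it to hold. In the activator experiment all strains carried UME6(T99N)-3V5-aGFP and lacked the native IME1 gene (ime1Δ). Each held 1 transgene at HIS3 under the IME1 promoter. The transgene was sfGFP-B112 (a bacterial activation domain fused to GFP), B112, sfGFP-IME1 or IME1, and samples were again taken at 0, 2, 4 and 6 h.

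The libraries held from 4322697 to 23448759 estimated counts, with 1 exception. Replicate 2 of sfGFP-IME1; UME6-3V5 at 4 h held 44189 counts, with 1 count for MPC54 and 0 for SPO20. In the rescue table, the counts and the TPM (length-scaled share of transcripts) of IME1; UME6-3V5 replicate 1 at 0 h and at 2 h matched only when the pair was exchanged, and both libraries were left out, so these conditions have 2 libraries. In the mitotic control at -30 min, replicate 2 stood apart from the others for several of the 9 genes. ADY4 was at 45.6 TPM there and at 18.3 and 19.0 TPM in the other control libraries, and SPO74 was at 16.6 TPM there and at 5.40 and 4.49 TPM in the others. Levels below are TPM. Differences are log2 fold changes with their standard error from edgeR's quasi-likelihood fit to the counts of all libraries of an experiment, and a gene is called changed at an adjusted p (Benjamini-Hochberg over all genes tested) below 0.05.

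The altered genes were checked first. UME6 was at 0.051 to 0.557 TPM in ume6Δ cells and at 34.9 to 36.5 TPM in WT cells. The degron acts on the protein, and UME6 RNA was at 119.6 to 122.3 TPM in depletion cells at 15 min, against 82.0 to 88.0 TPM in control cells. IME1 was at 0.7 to 1.7 TPM in sfGFP-B112 cells at 4 h, which have no IME1 gene, against 455.5 to 588.6 TPM in sfGFP-IME1 cells. As a check of the meiotic state, the meiotic gene IME2 was at 52.1 to 57.7 TPM in depleted growing cells at 15 min and at 5.3 to 5.5 TPM in their controls, and at 2752 to 2954 TPM in IME1; UME6 cells after 6 h of sporulation. Bulk RNA cannot tell fewer sporulating cells from less RNA in each of them, and this holds for every difference below.

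The sequences upstream of the start codons show which genes carry letters of the URS1 core and which carry the MSE core, the elements through which Ume6 and Ndt80 are known to act. They were read from the S288C reference R64 of RefSeq, not from an SK1 genome, over the 300 bases before each start codon and on both strands. The URS1 core was searched as GGCGGC. It was present at MPC54, ADY3, DON1 and SPO14, in 4 of the 9 genes, and in 313 of 6008 nuclear genes (5.21%). The MSE core was searched as GNCACAAA (N is any base), and no match of one motif overlapped a match of the other. It was present at SPO21, SPO74, ADY4, SSP1, DON1 and SPO14, in 6 of the 9 genes, and in 247 of 6008 genes (4.11%). DON1 and SPO14 had both and SPO20 had neither. A match is only a run of letters, not a shown binding site. The windows below run 5′ to 3′ on the strand of the gene, with the matched letters in capitals (a match on the opposite strand reads as its reverse complement). The first 3, of 120 bases, are the genes with a URS1 core that responded in growing cells (MPC54 chrXV:667270-667389, minus strand; ADY3 chrIV:28866-28985, minus strand; DON1 chrIV:1009966-1010085, plus strand). The other 3, of 80 bases, are genes with an MSE core and no URS1 core (SPO21 chrXV:145174-145253, plus strand; SPO74 chrVII:185475-185554, minus strand; SSP1 chrVIII:472584-472663, plus strand).
MPC54: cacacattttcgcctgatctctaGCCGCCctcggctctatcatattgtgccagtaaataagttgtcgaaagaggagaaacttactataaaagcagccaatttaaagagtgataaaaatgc
ADY3: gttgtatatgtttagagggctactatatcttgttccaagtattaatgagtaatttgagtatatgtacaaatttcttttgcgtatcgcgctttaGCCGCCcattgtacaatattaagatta
DON1: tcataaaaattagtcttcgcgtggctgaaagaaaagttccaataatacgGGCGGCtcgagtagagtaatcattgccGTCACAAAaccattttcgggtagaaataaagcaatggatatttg
SPO21: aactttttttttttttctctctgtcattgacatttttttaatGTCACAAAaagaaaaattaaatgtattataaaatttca
SPO74: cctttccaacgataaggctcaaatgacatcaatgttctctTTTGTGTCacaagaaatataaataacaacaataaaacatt
SSP1: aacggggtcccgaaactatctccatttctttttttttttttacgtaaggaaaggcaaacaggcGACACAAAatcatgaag
In the first set the URS1 core began 187 bases before the start codon of MPC54, 117 before that of ADY3 and 161 before that of DON1, where an MSE core followed at 134 bases. In the second set the MSE core began 118, 120 and 97 bases before the start codons of SPO21, SPO74 and SSP1. SPO14 had its URS1 core at the far end of the window, 299 bases before the start codon. It was not called on depletion in growing cells or in ume6Δ cells, and a link with this position was not tested.

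The first question was which of these genes depend on Ume6 for their silence in growing cells. After Ume6 depletion, MPC54 of the meiotic plaque and ADY3 and DON1 of the leading edge rose, and the other 6 genes were not called. At 15 min MPC54 was at 19.9, 17.7 and 15.9 TPM in depletion cells, against 3.70, 4.49 and 5.59 TPM in control cells. The difference was 1.89 ± 0.24 (SE, n = 3 each, adjusted p = 3.9e-07 by edgeR). ADY3 was at 10.9, 9.49 and 9.45 TPM in depletion cells, against 4.01, 4.53 and 4.66 TPM in control cells. DON1 was at 26.8, 20.5 and 28.3 TPM in depletion cells, against 14.9, 12.995 and 15.4 TPM in control cells. For all 3 genes the groups did not overlap, and the differences of ADY3 and DON1 were 1.12 ± 0.18 and 0.75 ± 0.15. Of all genes tested, 10.2% were called higher at 15 min, and 3 of the 9 were.

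The same 3 genes were called higher at 30, 60 and 120 min, where 4.94%, 4.08% and 3.61% of all genes were, and no member was called lower. At -30 and 0 min none of the 9 was called, and 0.182% and 0.346% of all genes were called higher. Without adjustment DON1 alone had p below 0.05, at 0 min, and DESeq2 called none of the 9 at either time. MPC54 was at 41.4, 34.3 and 29.1 TPM in depletion cells at 120 min, against 9.08, 14.4 and 10.03 TPM in control cells, a difference of 1.71 ± 0.21. ADY3 differed by 0.96 ± 0.16 and DON1 by 0.58 ± 0.15 at that time. The call of DON1 at 120 min was lost without control replicate 1 (adjusted p = 0.057) or depletion replicate 1 (adjusted p = 0.071).

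**Figure D1:**
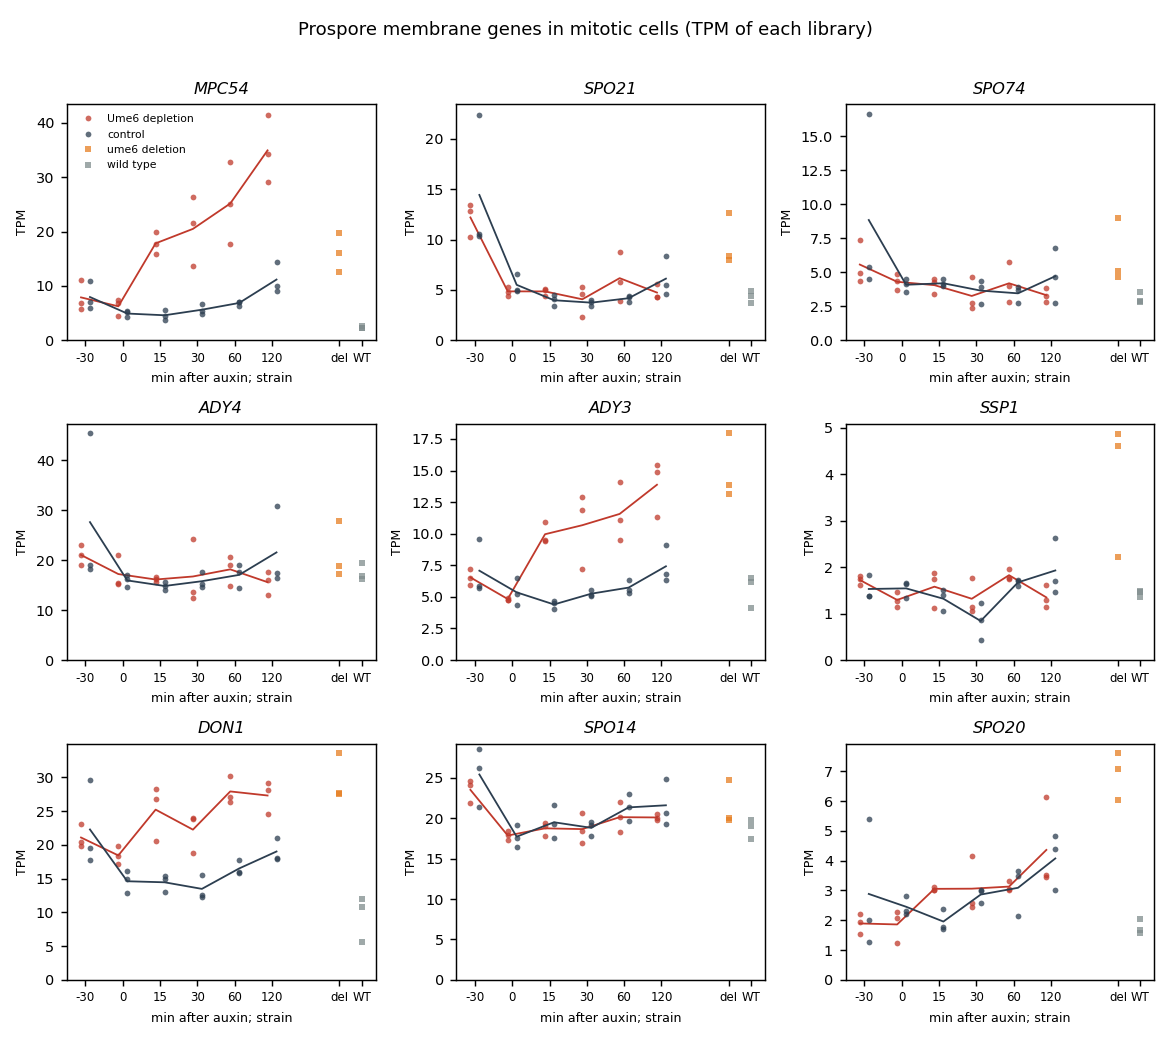
TPM of the 9 genes in growing cells, 1 panel a gene, with time after auxin on the x axis (evenly spaced steps) and 1 point a library for Ume6 depletion and control cells and for ume6Δ and WT cells. MPC54, ADY3 and DON1 are higher in depletion cells from 15 min on (MPC54 at 15.9 to 19.9 TPM, against 3.70 to 5.59 TPM in controls). SPO74, ADY4 and SPO14 overlap between depletion and control cells, while SPO74 is higher in ume6Δ than in WT cells.

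Among the genes that were not called, SPO20 came nearest at 15 min, at 3.03, 3.01 and 3.13 TPM in depletion cells, against 1.77, 1.71 and 2.39 TPM in control cells. These groups did not overlap, but the difference of 0.58 ± 0.33 had an adjusted p of 0.2. SPO14, the most abundant of these genes in controls at this time, was at 19.4, 19.1 and 17.8 TPM in depletion cells and at 17.6, 19.3 and 21.6 TPM in control cells. SPO21, the partner of MPC54 in the plaque, was at 5.00, 5.12 and 4.42 TPM in depletion cells and at 4.45, 3.39 and 4.07 TPM in control cells, a difference of 0.24 ± 0.26 (adjusted p = 0.51). SSP1 was below 2 TPM in every library of both strains at 15 min.

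Permanent loss of Ume6 was compared with WT in the same experiment. In ume6Δ cells 7 of the 9 genes were called higher, beside 27.5% of all genes. MPC54 again had the largest difference. It was at 12.6, 16.1 and 19.8 TPM in ume6Δ cells and at 2.67, 2.19 and 2.26 TPM in WT cells (2.65 ± 0.26). SPO20 was at 6.02, 7.06 and 7.60 TPM in ume6Δ cells and at 1.56, 2.04 and 1.67 TPM in WT cells (1.87 ± 0.30). DON1 differed by 1.50 ± 0.15, SSP1 by 1.35 ± 0.25, ADY3 by 1.30 ± 0.17, SPO21 by 1.05 ± 0.24 and SPO74 by 0.90 ± 0.32. The call of SPO74 was lost without WT replicate 2 (adjusted p = 0.064) or ume6Δ replicate 3 (adjusted p = 0.16). ADY4 (0.17 ± 0.21) and SPO14 (0.10 ± 0.07) were not called. SPO20, SSP1, SPO21 and SPO74 thus passed the threshold in the deletion and at no time of the depletion, and the difference between these comparisons was not tested.

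The degron control cells were not at the WT level at -30 min. At -30 min 6 of the 9 genes were called higher in control cells than in WT cells, beside 21.0% of all genes. MPC54 was at 5.91, 10.9 and 7.005 TPM in control cells and at 2.67, 2.19 and 2.26 TPM in WT cells (1.60 ± 0.28), and SPO21 was at 10.4, 22.4 and 10.5 TPM in control cells and at 4.88, 4.40 and 3.66 TPM in WT cells (1.61 ± 0.23). SPO74, DON1, SPO14 and ADY4 were the other 4. ADY4 lost its call without replicate 2 of the control, the library that stood apart (adjusted p = 0.65). The labels give both groups the same time. The strains differ in the degron tag on Ume6 and in the activator, which cannot be told apart. In the same control strain SPO21 was lower at later times, at 4.92, 6.603 and 4.98 TPM at 0 min. It was at 4.45, 3.39 and 4.07 TPM at 15 min, which overlaps the WT levels. MPC54 was at 4.21, 5.14 and 5.38 TPM at 0 min, still above every WT library. Whether the state of the cells at -30 min had a part in these differences was not tested.

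In meiosis the question was how the levels of these genes differ when Ume6 is partly removed. At 6 h, 5 of the 9 genes were called lower in depletion cells, beside 7.11% of all genes, and none was called higher. SPO74 was at 4.14, 1.59 and 1.62 TPM in depletion cells, against 14.5, 5.45 and 7.88 TPM in control cells (-1.86 ± 0.40, adjusted p = 0.0014 by edgeR). SPO21 was at 5.21, 4.54 and 6.02 TPM in depletion cells, against 16.3, 9.83 and 12.3 TPM in control cells (-1.21 ± 0.18). SPO20 was at 15.4, 13.8 and 14.5 TPM in depletion cells, against 37.8, 27.5 and 31.0 TPM in control cells (-1.07 ± 0.16). In each of these genes every depletion library was below every control library.

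The leading edge genes SSP1 and DON1 were the other 2. SSP1 was at 9.27, 7.80 and 9.54 TPM in depletion cells, against 21.1, 15.5 and 14.8 TPM in control cells (-0.88 ± 0.20). DON1 was at 88.4, 90.2 and 90.8 TPM in depletion cells, against 171, 145 and 171 TPM in control cells (-0.78 ± 0.13). All 5 calls held when any 1 library of either group was left out. MPC54 was at 75.02, 75.6 and 85.7 TPM in depletion cells and at 101, 81.3 and 105 TPM in control cells (-0.20 ± 0.18, adjusted p = 0.53). ADY3 (-0.14 ± 0.14), ADY4 (-0.14 ± 0.15) and SPO14 (0.14 ± 0.11) were not called either. MPC54 and ADY3, which rose on depletion in growing cells, were thus not among the genes called lower at 6 h of meiosis, and DON1 was.

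At 4.5 h, 3 genes were called lower, beside 4.29% of all genes, and none higher. DON1 was at 85.9, 84.6 and 79.6 TPM in depletion cells, against 160, 134 and 126 TPM in control cells (-0.58 ± 0.13, adjusted p = 0.0042). MPC54 differed by -0.66 ± 0.19 and SPO20 by -0.60 ± 0.17. Both of these calls rested on single libraries. MPC54 lost its call without control replicate 1 or 3 or depletion replicate 1 or 2, and SPO20 lost its call without control replicate 1 or depletion replicate 1 or 2. At 3 h SPO20 was lower (-0.77 ± 0.18, beside 4.63% of all genes) and ADY3 higher (0.48 ± 0.14, beside 3.76%), and at 2.5 h SPO20 was lower (-0.60 ± 0.17, beside 4.92%). The calls of ADY3 at 3 h and of SPO20 at 2.5 h were each lost without any of 4 single libraries of the 6. The call of SPO20 at 3 h was lost without control replicate 1 (adjusted p = 0.057).

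**Figure D2:**
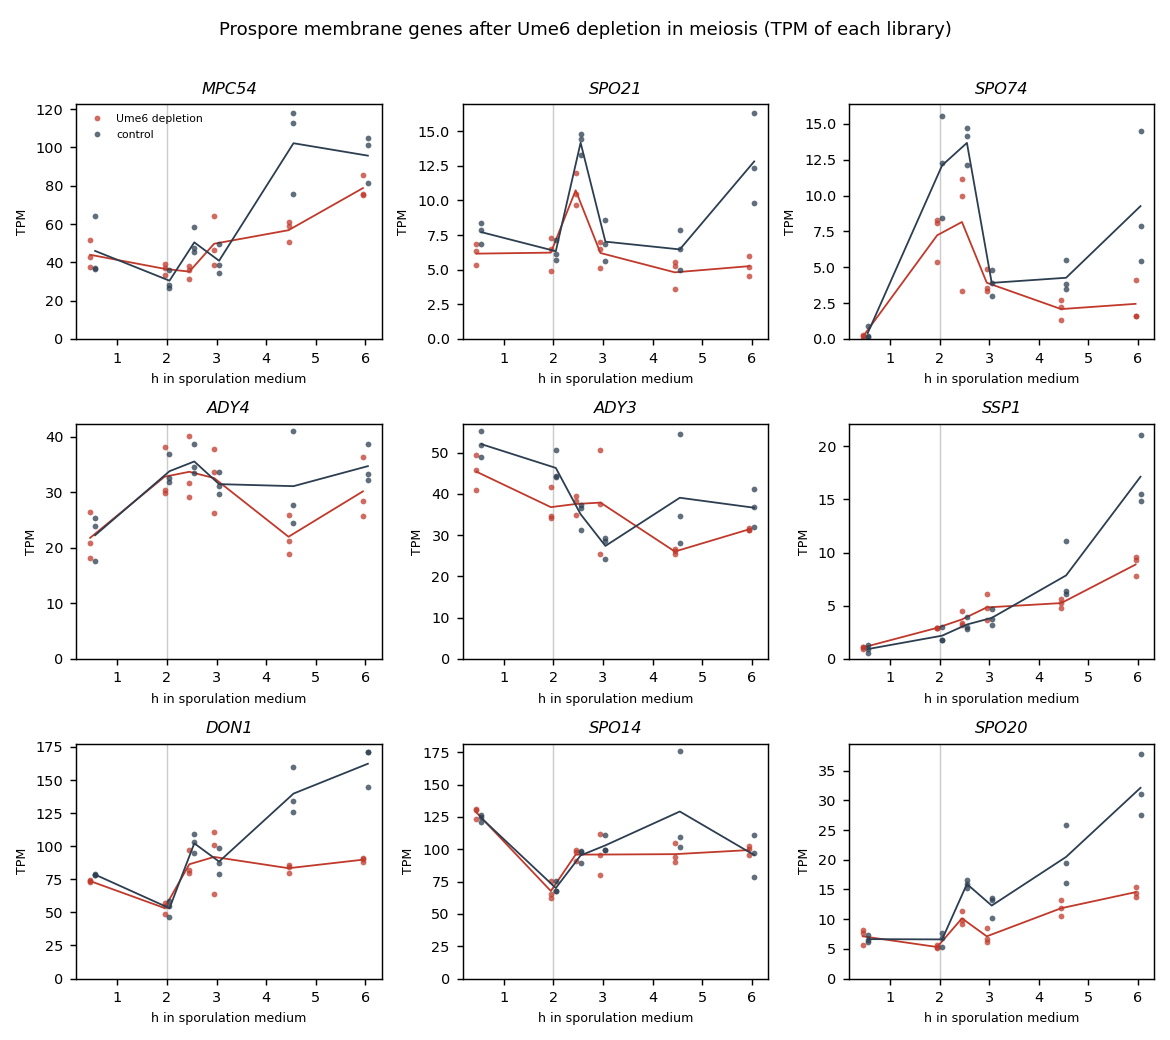
TPM of the 9 genes in the meiotic depletion experiment, 1 panel a gene, against hours in sporulation medium, with 1 point a library for Ume6 depletion and control cells. At 6 h the depletion libraries of SPO74, SPO21, SPO20, SSP1 and DON1 lie below all control libraries (SPO20 at 13.8 to 15.4 TPM, against 27.5 to 37.8 TPM), and SPO74 rises in both strains between 0.5 and 2 h, before copper.

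The change from 2 h, the last sample before IME1 and IME4 were induced, was compared between the strains as a test of the difference itself. To 6 h, 3 genes rose less in depletion cells, beside 4.20% of all genes. SPO21 differed by -1.21 ± 0.26 (adjusted p = 0.0022), SSP1 by -1.35 ± 0.34 (adjusted p = 0.011) and DON1 by -0.81 ± 0.19 (adjusted p = 0.0048). Over this interval 5 of the 9 genes were called higher in depletion cells, beside 30.4% of all genes, and 6 in control cells, beside 34.2%. In each strain 1 of the 9 was called lower, beside 31.7% and 34.9% of all genes. SPO74 was at 8.46, 12.3 and 15.6 TPM in control cells at 2 h and at 14.5, 5.45 and 7.88 TPM at 6 h, which overlap. SSP1 rose by 1.61 ± 0.23 in depletion cells and by 2.96 ± 0.23 in control cells. From 2 to 6 h SPO21 changed by -0.24 ± 0.19 in depletion cells, which was not called, and rose by 0.98 ± 0.17 in control cells. These endpoints leave out a higher level at 2.5 h in both strains. In depletion cells SPO21 was at 7.32, 6.49 and 4.88 TPM at 2 h and at 10.5, 12.004 and 9.698 TPM at 2.5 h. In control cells it was at 6.17, 7.15 and 5.69 TPM at 2 h and at 13.3, 14.4 and 14.8 TPM at 2.5 h. At 3 h it was at 5.12 to 7.007 TPM in depletion cells and at 5.66 to 8.57 TPM in control cells. MPC54 rose in both strains, by 1.12 ± 0.19 in depletion cells and by 1.63 ± 0.19 in control cells, and its difference of -0.51 ± 0.27 was not called (adjusted p = 0.32).

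Before copper, SPO74 was the gene that moved most. At 0.5 h it had 0 to 2 counts in each depletion library and 2 to 9 counts in each control library. At 2 h it was at 8.26, 8.06 and 5.37 TPM in depletion cells and at 8.46, 12.3 and 15.6 TPM in control cells, and it was called higher at 2 h than at 0.5 h in both strains, beside 30.7% of all genes in depletion cells and 30.9% in control cells. With so few counts at 0.5 h no fold is given. SPO14 fell over the same interval. In depletion cells it was at 131, 124 and 130 TPM at 0.5 h and at 62.0, 75.3 and 65.7 TPM at 2 h (-1.10 ± 0.12), and in control cells it changed by -0.99 ± 0.12, beside 35.6% of all genes called lower in depletion cells and 35.5% in control cells. Between the strains none of the 9 genes was called at 0.5 or 2 h, beside 0.181% and 4.74% of all genes called in either direction, by edgeR or by DESeq2, and unadjusted p below 0.05 was found for SPO74 and ADY3 at 2 h.

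In the strain with untagged IME1 and untagged UME6, all 9 genes rose during sporulation. MPC54, DON1 and ADY3 rose first. MPC54 was at 35.7, 33.1 and 44.0 TPM at 0 h and at 110, 84.2 and 114 TPM at 2 h. It then reached 200, 221 and 220 TPM at 4 h, and 453, 420 and 409 TPM at 6 h. DON1 was at 36.8, 31.5 and 33.8 TPM at 0 h, at 117, 87.4 and 119 TPM at 2 h and at 2542, 2220 and 2528 TPM at 6 h, the highest level of the 9 genes in this strain. ADY3 was at 8.29, 8.50 and 9.06 TPM at 0 h and at 22.7, 24.1 and 23.4 TPM at 2 h. Its level was 116, 117 and 114 TPM at 4 h, and 659, 565 and 551 TPM at 6 h. From 0 to 2 h these genes changed by 1.41 ± 0.19, 1.62 ± 0.21 and 1.40 ± 0.23. SPO21 and SPO20 were also called higher at 2 h, which makes 5 of the 9 beside 33.0% of all genes, but both calls were lost without replicate 1 at 2 h (adjusted p = 0.063 and 0.12).

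In TPM, most of the rise of SPO74, SPO21, SSP1 and SPO20 came between 4 and 6 h, and so did that of ADY3. SPO74 was at 1.80, 2.19 and 0.899 TPM at 0 h, at 22.6, 22.2 and 18.7 TPM at 4 h and at 1179, 1077 and 1006 TPM at 6 h. SPO21 was at 17.9, 17.4 and 17.4 TPM at 4 h and at 541, 547 and 530 TPM at 6 h. SSP1 was at 10.7, 14.9 and 14.3 TPM at 4 h and at 534, 528 and 528 TPM at 6 h, and SPO20 was at 19.8, 19.8 and 17.9 TPM at 4 h and at 1011, 863 and 863 TPM at 6 h. The change from 4 to 6 h was not tested.

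All 9 genes were called higher at 4 h, beside 36.5% of all genes, and at 6 h, beside 39.6%. The change from 0 to 6 h was 9.78 ± 0.50 for SPO74, 8.16 ± 0.33 for SPO21, 7.91 ± 0.31 for SPO20 and 7.76 ± 0.38 for SSP1. It was 6.61 ± 0.25 for DON1 and 6.55 ± 0.26 for ADY3, and smaller for ADY4 (4.68 ± 0.21), MPC54 (3.96 ± 0.21) and SPO14 (3.12 ± 0.16), the last 2 of which started from higher levels. The median of all genes changed by -0.48 on the log2 scale in TPM over this interval and by -0.04 after edgeR's scaling, so the fitted changes are larger than the ratios of TPM.

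**Figure D3:**
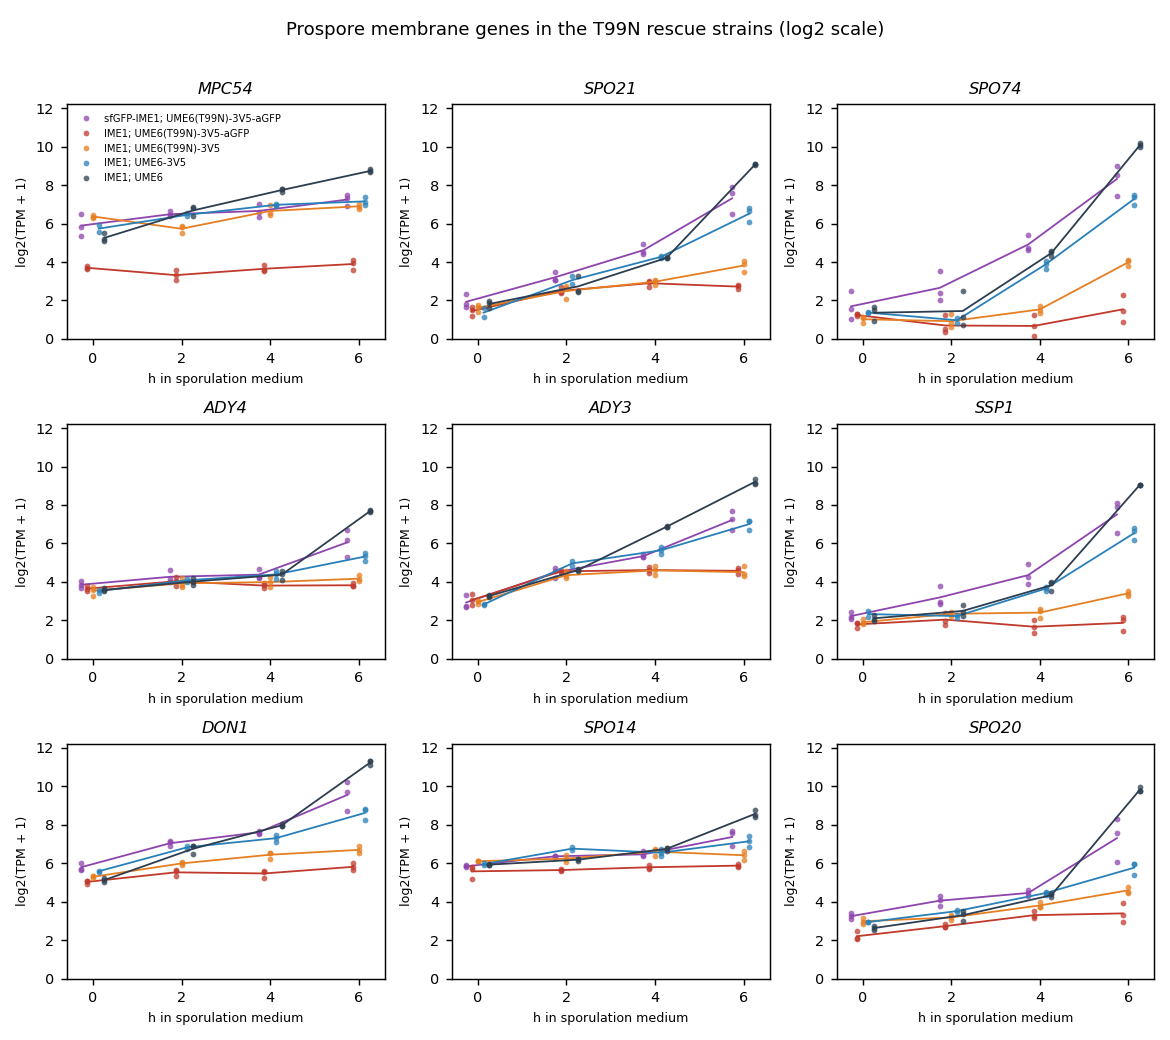
Levels of the 9 genes as log2(TPM + 1) in 5 strains of the rescue experiment, 1 panel a gene, against hours in sporulation medium, with 1 point a library and a line through the means. At 6 h SPO74 is highest in IME1; UME6 (1006 to 1179 TPM) and lowest in IME1; UME6(T99N)-3V5-aGFP (0.874 to 3.83 TPM), while tethering to sfGFP-IME1 brings it to 169 to 518 TPM.

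The 3V5 tag on Ume6 alone went with lower levels at 6 h. All 9 genes were called lower with UME6-3V5 than with UME6, beside 32.6% of all genes. SPO20 was at 61.3, 40.2 and 61.9 TPM with UME6-3V5, against 1011, 863 and 863 TPM with UME6 (-4.62 ± 0.26), the largest difference. SPO14 was at 169, 115 and 142 TPM with UME6-3V5, against 443, 359 and 341 TPM with UME6 (-1.98 ± 0.15), the smallest. The median of all genes differed by 0.66 in log2 TPM in this comparison, and by 0.12 after scaling. At 4 h only ADY3 (-1.19 ± 0.21), MPC54 (-0.73 ± 0.19) and DON1 (-0.62 ± 0.20) were called lower, beside 6.55% of all genes, and DON1 lost its call without any 1 of 5 of the 6 libraries. With sfGFP-IME1 at 4 h 5 genes were called lower with UME6-3V5 than with UME6, SSP1 (-1.93 ± 0.36), SPO74 (-1.92 ± 0.42), ADY3 (-1.67 ± 0.24), SPO21 (-1.08 ± 0.29) and DON1 (-1.06 ± 0.22), beside 6.68% of all genes. The calls of SPO21 and SPO74 were lost without replicate 3 of sfGFP-IME1; UME6 (adjusted p = 0.32 and 0.13) or replicate 1 of sfGFP-IME1; UME6-3V5 (adjusted p = 0.15 and 0.055). With sfGFP-IME1 all 9 genes were lower with UME6-3V5 than with UME6 at 6 h, beside 27.3% of all genes, by -1.70 ± 0.19 (MPC54) to -4.999 ± 0.26 (SPO20).

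The T99N change was compared with UME6-3V5. With untagged IME1 at 6 h, 8 of the 9 genes were called lower, beside 14.9% of all genes. SPO74 was at 16.2, 15.6 and 13.1 TPM with UME6(T99N)-3V5, against 181, 124 and 166 TPM with UME6-3V5 (-3.26 ± 0.36). SSP1 was at 8.76, 10.7 and 9.46 TPM with UME6(T99N)-3V5, against 111.7, 70.5 and 98.2 TPM with UME6-3V5 (-3.15 ± 0.31). SPO21 (-2.67 ± 0.26), ADY3 (-2.44 ± 0.22) and DON1 (-1.83 ± 0.21) followed, and SPO20, ADY4 and SPO14 differed by -1.11 ± 0.24, -1.08 ± 0.19 and -0.62 ± 0.15. MPC54 was the exception, at 131, 118 and 108 TPM with UME6(T99N)-3V5 and at 168, 123 and 137 TPM with UME6-3V5. Its groups overlapped (-0.14 ± 0.19, adjusted p = 0.6). With sfGFP-IME1 the differences were smaller. ADY3 was lower by -1.29 ± 0.21, and SPO74, SSP1, SPO21 and DON1 were called lower with adjusted p between 0.02 and 0.048, beside 6.51% of all genes. Each of these last 4 calls was lost without replicate 2 or 3 of sfGFP-IME1; UME6-3V5, and also without replicate 2 of sfGFP-IME1; UME6(T99N)-3V5.

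The nanobody on UME6(T99N)-3V5 with untagged IME1, which it cannot hold, went with a lower level of MPC54 from 0 h on. MPC54 was at 11.3, 12.7 and 12.1 TPM with the nanobody at 0 h, against 87.1, 81.7 and 77.0 TPM without it (-2.68 ± 0.21, adjusted p = 3.9e-17 by edgeR). At 6 h it was at 16.5, 11.2 and 14.5 TPM with the nanobody, against 131, 118 and 108 TPM without it (-2.91 ± 0.21). At 0 h SPO14 and SPO20 were also called lower (3 of 9 beside 19.1% of all genes), by -0.44 ± 0.15 and -0.85 ± 0.32, and both calls were lost without replicate 1 of the nanobody strain. At 6 h, 7 of the 9 genes were lower with the nanobody, beside 25.7% of all genes, among them SPO74 (-2.69 ± 0.46) and SSP1 (-1.67 ± 0.36), while ADY3 (0.23 ± 0.21) and ADY4 (-0.20 ± 0.19) were not called. UME6 RNA itself differed between these strains at 0 h by -1.24 ± 0.13, and its part in the result was not tested.

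Tethering was measured as sfGFP-IME1 over IME1 in cells with UME6(T99N)-3V5-aGFP. At 0 h 3 of the 9 genes were called higher, beside 19.1% of all genes, and at 2 h 6 were (beside 29.0%). At 4 h the number was 8 (beside 31.7%), and by 6 h it was 9 (beside 33.0%). None was called lower. MPC54 had the largest difference at 0 h. It was at 56.6, 89.4 and 39.7 TPM with sfGFP-IME1 at 0 h, against 11.3, 12.7 and 12.1 TPM with IME1 (2.32 ± 0.21). It stayed higher at each later time, by 3.01 ± 0.22 at 2 h, 2.90 ± 0.21 at 4 h and 3.35 ± 0.21 at 6 h. DON1 (0.75 ± 0.21) and SPO20 (1.19 ± 0.32) were the other 2 at 0 h.

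By 6 h the largest differences were those of SPO74, SSP1 and SPO21. SPO74 was at 369, 518 and 169 TPM with sfGFP-IME1, against 1.71, 0.874 and 3.83 TPM with IME1 (7.33 ± 0.45, and 8.00 without replicate 3 of the strain with IME1). SSP1 was at 234, 276 and 91.3 TPM with sfGFP-IME1, against 3.04, 1.69 and 3.44 TPM with IME1 (6.13 ± 0.36). SPO21 was at 190, 236 and 88.3 TPM with sfGFP-IME1, against 5.81, 5.03 and 6.01 TPM with IME1 (4.84 ± 0.28). Replicate 3 of the tethered strain was the lowest library in all 9 genes, and it was still above every library with IME1.

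The vesicle fusion genes had unequal differences at 6 h. SPO20 was at 188, 314 and 65.4 TPM with sfGFP-IME1, against 8.83, 6.81 and 14.0 TPM with IME1 (4.19 ± 0.26, and 3.57 without replicate 2 of the tethered strain). SPO14 was at 189, 200 and 116 TPM with sfGFP-IME1, against 57.0, 54.1 and 62.0 TPM with IME1 (1.45 ± 0.15). DON1 (3.80 ± 0.22), ADY3 (2.66 ± 0.22) and ADY4 (2.34 ± 0.19) lay between these values. At 4 h the call of ADY3 (0.53 ± 0.21) was lost without any 1 of 4 of the 6 libraries, and at 2 h that of SSP1 was lost without replicate 2 of the tethered strain (adjusted p = 0.098) or replicate 3 of the strain with IME1 (adjusted p = 0.05).

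The tethered strain was also set against sfGFP-IME1; UME6-3V5, which has neither the T99N change nor the nanobody. No gene of the 9 was called at 0 h, beside 11.8% of all genes called higher, and 2 genes were called higher at 2 h (beside 19.7%), 4 at 4 h (beside 9.25%) and 9 at 6 h (beside 14.2%). The 2 genes at 2 h were SPO74 (2.14 ± 0.61) and SSP1 (0.89 ± 0.36), a share near that of all genes, and both calls were lost without replicate 2 of the tethered strain (adjusted p = 0.095 and 0.33). SSP1 also lost its call without replicate 1 or 3 of sfGFP-IME1; UME6-3V5. At an unadjusted p below 0.05 the 0 h comparison has 3 of the 9 genes, and DESeq2 called none of them. At 6 h SSP1 was at 234, 276 and 91.3 TPM in the tethered strain, against 14.7, 21.2 and 27.6 TPM with UME6-3V5 (3.36 ± 0.29). SPO74 differed by 3.15 ± 0.34, SPO20 by 2.91 ± 0.24, SPO21 by 2.86 ± 0.25 and MPC54 by 0.72 ± 0.19. The 4 h comparison holds the library of 44189 counts. Without it SPO21, SPO74, SSP1 and DON1 were still called higher. SPO21 and SPO74 lost their calls without replicate 1 of sfGFP-IME1; UME6-3V5 (adjusted p = 0.12 for both), and DON1 without its replicate 3 (adjusted p = 0.19).

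The nanobody was also compared within cells that carry sfGFP-IME1, where the tethered strain was set against sfGFP-IME1; UME6(T99N)-3V5. At 6 h all 9 genes were called higher in the tethered strain, beside 22.8% of all genes, and at 2 and 4 h 5 were, beside 22.2% and 19.2%. SSP1 was at 234, 276 and 91.3 TPM in the tethered strain at 6 h, against 9.38, 7.72 and 14.5 TPM without the nanobody (4.26 ± 0.31). SPO74 differed by 4.11 ± 0.36 and MPC54 by 0.57 ± 0.18, and the call of MPC54 was lost without replicate 2 of the tethered strain (adjusted p = 0.1). At 2 h the number of calls came to 2 without replicate 2 of sfGFP-IME1; UME6(T99N)-3V5. At 0 h edgeR called none of the 9 (2 at an unadjusted p below 0.05), and DESeq2 called 1, SPO21.

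Over time, from 0 to 6 h, all 9 genes were called higher in the tethered strain (beside 36.1% of all genes), with SPO74 at 7.10 ± 0.45 and MPC54 at 1.26 ± 0.19. In IME1; UME6(T99N)-3V5-aGFP 4 of the 9 were (beside 31.7%), SPO21 (1.67 ± 0.33), ADY3 (1.65 ± 0.22), SPO20 (1.44 ± 0.31) and DON1 (0.82 ± 0.21). In IME1; UME6(T99N)-3V5 8 were (beside 35.0%), all but SPO14 (0.25 ± 0.15), though MPC54 (0.46 ± 0.19) lost its call without replicate 1 at 6 h or replicate 3 at 0 h, and in IME1; UME6-3V5 all 9 were (beside 33.7%).

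The activator experiment asked whether a bacterial activation domain can stand in for Ime1 when it is held at Ume6. With sfGFP-IME1 over IME1, the number of the 9 genes called higher was 7 at 0 h, beside 27.7% of all genes, and 9 at 2, 4 and 6 h, beside 32.6%, 31.0% and 30.1%. SPO74 was at 24.3, 23.1 and 21.8 TPM with sfGFP-IME1 at 0 h and at 171, 211 and 230 TPM at 2 h. Its level was 1298, 1373 and 1269 TPM at 4 h, and 769, 742 and 581 TPM at 6 h. With IME1 it stayed between 0.580 and 6.73 TPM. The difference at 4 h was 10.57 ± 0.84. SPO20 was at 1120, 1257 and 1298 TPM with sfGFP-IME1 at 4 h, against 7.29, 6.17 and 5.34 TPM with IME1 (8.12 ± 0.62), and DON1 reached 2776, 3566 and 2921 TPM, against 43.8, 39.1 and 32.1 TPM with IME1 (6.85 ± 0.37). For SPO74 each sfGFP-IME1 library at 6 h was below each at 4 h, and the difference between these times was not tested. The median of all genes differed by -0.66 in log2 TPM at 4 h, and by -0.16 after scaling.

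With sfGFP-B112 MPC54 had the largest difference at 0 h among the genes given a fold. At 0 h MPC54 was at 78.1, 166 and 161 TPM with sfGFP-B112, against 4.31, 5.94 and 5.77 TPM with untethered B112 (4.29 ± 0.32, adjusted p = 6.9e-14 by edgeR). SPO21 was at 5.97, 5.99 and 5.42 TPM with sfGFP-B112, against 1.24, 1.46 and 2.20 TPM with B112 (1.47 ± 0.46). ADY3 differed by 1.11 ± 0.28. SSP1 was also called, at 5.40, 5.32 and 4.48 TPM with sfGFP-B112, against 0, 0.299 and 0.139 TPM with B112, where its libraries held 0 to 4 counts and no fold is given. These 4 of 9 stood beside 28.3% of all genes.

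At 2 h 4 genes were called higher with sfGFP-B112 than with B112, at 4 h 6 and at 6 h 9, beside 24.0%, 21.0% and 28.5% of all genes. At 6 h SPO74 was at 363, 51.0 and 85.6 TPM with sfGFP-B112, against 0.550, 1.08 and 0.994 TPM with B112 (7.43 ± 0.77). SSP1 was at 222, 43.8 and 65.2 TPM with sfGFP-B112, against 1.07, 1.13 and 1.18 TPM with B112 (6.51 ± 0.56). Replicate 1 of sfGFP-B112 was the highest library for all 9 genes at 4 and 6 h. For SPO74 it was at 67.1 TPM at 4 h, against 8.25 and 8.98 TPM in the other replicates, while for SPO14 it was at 92.1 TPM and they were at 89.7 and 76.5 TPM. Without it all 9 genes were still called at 6 h, with SPO74 at 6.13, SPO20 at 3.05 in place of 4.58 ± 0.54, DON1 at 1.93 in place of 2.80 ± 0.31 and ADY4 at 0.56 in place of 1.18 ± 0.24. At 4 h the difference of SPO74 was 5.54 ± 0.75 and came to 3.92 without replicate 1. From 0 to 4 h within the sfGFP-B112 strain, SPO21, SPO74 and SSP1 were called higher (3 of 9 beside 27.9% of all genes), and all 3 calls were lost without replicate 1 at 4 h.

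In that strain MPC54 and SPO14 were not called higher at any later time than at 0 h. MPC54 was at 78.1, 166 and 161 TPM at 0 h and at 38.9, 69.5 and 75.2 TPM at 2 h. Its level was 106, 95.2 and 65.1 TPM at 4 h, and 178, 99.9 and 129 TPM at 6 h. It was called lower at 2 h (-1.50 ± 0.28, beside 34.7% of all genes) and at 4 h (-0.98 ± 0.27, beside 31.8%) than at 0 h, and not called at 6 h (-0.31 ± 0.27, adjusted p = 0.33). SPO14 ran a like course, lower at 2 h (-1.29 ± 0.26) and at 4 h (-0.60 ± 0.26, a call lost without any 1 of 5 of the 6 libraries), and not called at 6 h (-0.20 ± 0.26). ADY3 (-0.95 ± 0.28) and DON1 (-0.65 ± 0.29) were also called lower at 2 h, and the call of DON1 was lost without any 1 of 5 of the 6 libraries. From 0 to 6 h 7 of the 9 genes were called higher, and ADY4 and SPO20 lost their calls without replicate 1 at 6 h (adjusted p = 0.055 and 0.11). SPO21 rose by 3.80 ± 0.42 and SPO74 by 4.86 ± 0.65, beside 28.1% of all genes called higher.

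**Figure D4:**
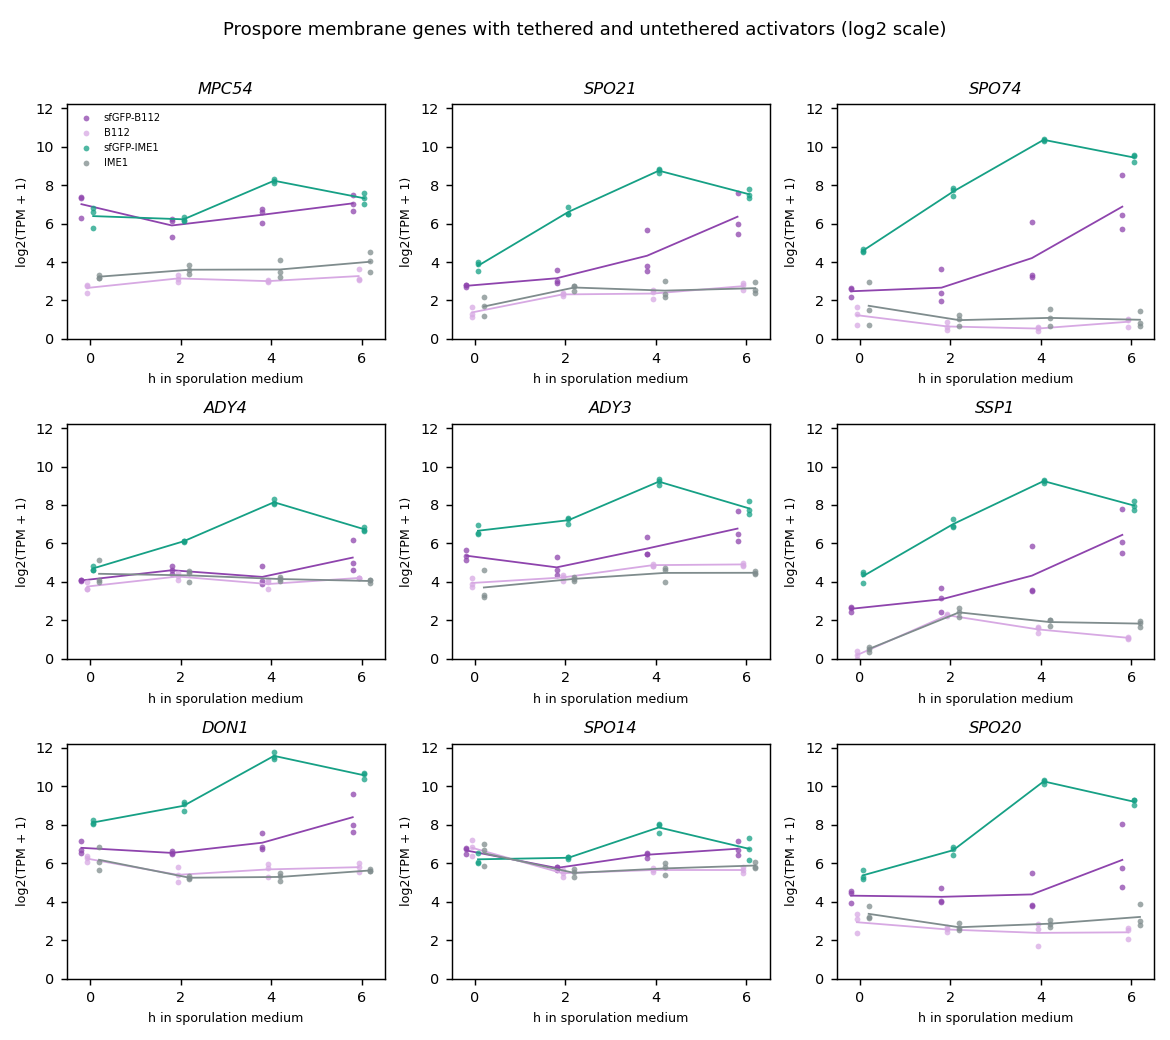
Levels of the 9 genes as log2(TPM + 1) in the 4 strains of the activator experiment, 1 panel a gene, against hours in sporulation medium, with 1 point a library and a line through the means. Levels with sfGFP-B112 are highest at 6 h for SPO21, SPO74, SSP1 and SPO20, those with sfGFP-IME1 are highest at 4 h (SPO74 at 1269 to 1373 TPM), and SPO74 stays below 7 TPM with IME1.

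The tethered activators were compared directly. With sfGFP-B112 5 of the 9 genes were lower than with sfGFP-IME1 at 0 h, 7 at 2 h and all 9 at 4 and 6 h, beside 8.79%, 14.5%, 26.9% and 29.5% of all genes, and none was called higher. At 2 h MPC54 was at 38.9, 69.5 and 75.2 TPM with sfGFP-B112 and at 69.7, 71.4 and 80.5 TPM with sfGFP-IME1 (-0.27 ± 0.27, adjusted p = 0.51), while SPO21 was at 10.9, 6.49 and 6.96 TPM with sfGFP-B112, against 87.9, 87.9 and 117 TPM with sfGFP-IME1 (-3.59 ± 0.42). At 0 h the difference of MPC54 was positive but not called (0.68 ± 0.27, adjusted p = 0.077), and MPC54 was called higher without replicate 1 of sfGFP-B112 (adjusted p = 0.0085). The call of SPO21 at 0 h was lost without any 1 of the 6 libraries, and that of SPO74 without replicate 3 of sfGFP-B112. At 4 h SPO20 differed by -6.42 ± 0.57, SPO74 by -6.28 ± 0.67 and MPC54 by -2.44 ± 0.29. The median of all genes differed by 0.92 in log2 TPM at 4 h and by 0.25 after scaling, so these fitted differences are larger than the ratios of TPM.

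At 6 h the differences between the tethered activators were smaller, with SPO20 at -3.15 ± 0.49, SPO74 at -2.83 ± 0.57, MPC54 at -1.01 ± 0.27 and SPO14 at -0.81 ± 0.26. Without replicate 1 of sfGFP-B112 SPO20 came to -4.68 and SPO74 to -4.13. SPO14 was at 140, 86.1 and 101 TPM with sfGFP-B112 and at 160, 106 and 70.8 TPM with sfGFP-IME1. These levels overlap, and in TPM the SPO14 difference had the other sign (0.01), where the median of all genes differed by 0.78 in log2 TPM and by 0.01 after scaling. Its call was also lost without replicate 2 of sfGFP-B112 or replicate 1 of sfGFP-IME1.

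Between untethered B112 and IME1 no difference was called in these genes. None of the 9 was called at 0, 2, 4 or 6 h, beside 11.7%, 0.199%, 0.362% and 1.61% of all genes called in either direction, and DESeq2 called none either. Of the 36 values 1 was below 0.05 without adjustment, that of MPC54 at 6 h (adjusted p = 0.24 by edgeR). MPC54 was at 11.5, 7.404 and 7.58 TPM with B112 and at 21.7, 15.4 and 10.4 TPM with IME1 (-0.78 ± 0.29).

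**Figure D5:**
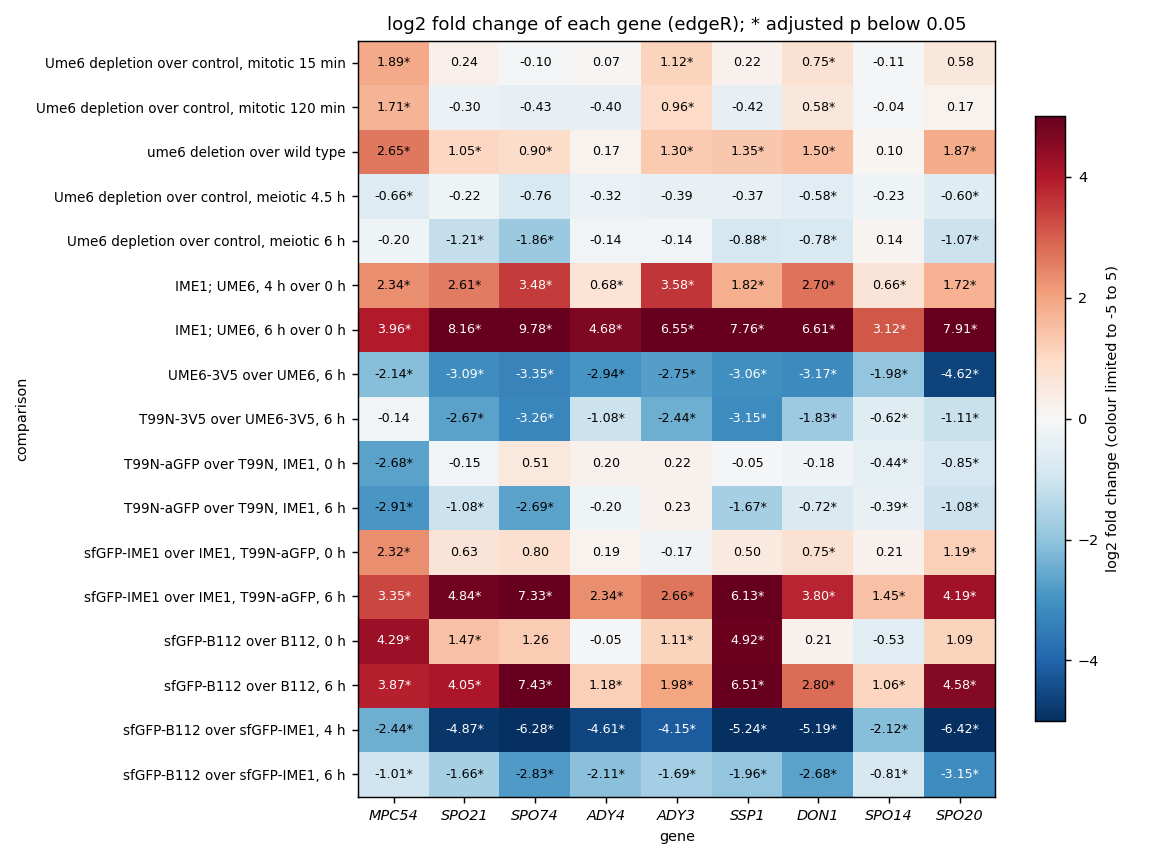
Fitted log2 fold changes of the 9 genes (columns) in the main comparisons (rows), the strain or time named first over the one named second, as a colour limited to -5 to 5 with the value printed and a star where the adjusted p was below 0.05. MPC54 has the largest value on depletion in growing cells (1.89 at 15 min), and SPO74 at 6 h on tethering of sfGFP-IME1 (7.33). The value of SSP1 at 0 h with sfGFP-B112 rests on 0 to 4 counts in each B112 library.

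The GFP tag on IME1 itself was compared where no nanobody was present. With UME6 at 6 h, SPO21 (-0.92 ± 0.23), MPC54 (-0.86 ± 0.18), SPO14 (-0.78 ± 0.15), SPO20 and ADY3 were called lower with sfGFP-IME1 than with IME1, beside 21.3% of all genes. The calls of ADY3 and SPO20 were lost without replicate 1 of either strain, among others. With UME6-3V5 at 6 h, 8 of the 9 genes were called lower with sfGFP-IME1, beside 2.93% of all genes. SPO21 was at 21.2, 26.1 and 29.1 TPM with sfGFP-IME1, against 111, 67.9 and 99.6 TPM with IME1 (-1.77 ± 0.24), and SSP1 was at 14.7, 21.2 and 27.6 TPM with sfGFP-IME1, against 111.7, 70.5 and 98.2 TPM with IME1 (-2.06 ± 0.28). MPC54 was at 96.4, 97.5 and 104 TPM with sfGFP-IME1 and at 168, 123 and 137 TPM with IME1 (-0.42 ± 0.19, adjusted p = 0.24).

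Other genes of spore membrane growth, from a list of 9, were set beside these. They include the leading edge and membrane factors IRC10, YSW1, SPO71, SPO73, SPO75 and SMA2, the kinase gene SPS1, the phosphatase subunit gene GIP1 and AMA1, a meiotic activator of the anaphase-promoting complex. On depletion in growing cells at 15 min 1 of the 9 rose, AMA1 (0.81 ± 0.13), a share near that of all genes (10.2%), and at 120 min none was called. In ume6Δ cells 4 rose (beside 27.5% of all genes), AMA1 (4.16 ± 0.18), YSW1 (2.49 ± 0.25), GIP1 (1.88 ± 0.25) and IRC10 (1.67 ± 0.22). In meiotic depletion at 6 h 5 of the 9 were lower (beside 7.11%), with SPS1 at -1.74 ± 0.21 and YSW1 at -1.37 ± 0.18. From 0 to 6 h in IME1; UME6 cells all 9 rose (beside 39.6%), with a median of 6.61, against a median of -0.04 over all genes. On tethering at 6 h 8 rose (beside 33.0%), with SPS1 at 6.44 ± 0.51 and YSW1 at 5.57 ± 0.32, and SPO73 (0.08 ± 0.17) was not called.

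The 10 genes of a list of partners that growing cells also use moved less uniformly. It holds the spindle pole genes CNM67, NUD1, SPC42 and SPC72, the fusion genes SSO1, SSO2, SEC9, SNC1 and SNC2, and VPS13. From 0 to 6 h in IME1; UME6 cells 6 rose, beside 39.6% of all genes. SPC42 (6.79 ± 0.29) and CNM67 (4.87 ± 0.20), the proteins on which the outer plaque sits, rose most. SSO1, the syntaxin that pairs with Spo20, rose by 2.09 ± 0.17, and SSO2 fell by 1.94 on the log2 scale (SE 0.16). On tethering at 6 h 3 rose and 3 fell, close to the shares of all genes (33.0% and 37.4%), among them SPC42 (3.02 ± 0.24) and SSO2 (-1.75 ± 0.16). SEC9, whose place Spo20 takes, was at 23.0 to 28.2 TPM with sfGFP-IME1, against 42.02 to 47.4 TPM with IME1 (-0.95 ± 0.13).

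Stage markers moved beside these groups. The 5 early genes IME2, ZIP1, SPO13, HOP1 and RED1 were all higher on depletion in growing cells at 15 min (median 2.27), beside 10.2% of all genes. None of the 4 middle genes NDT80, SMK1, SPR3 and SPS4 was called there (median 0.06). In meiotic depletion at 6 h all 5 early and all 4 middle genes were lower, with medians of -1.03 and -2.06, beside 7.11% of all genes. On tethering at 6 h all 5 and all 4 were higher, with medians of 4.88 and 5.97, beside 33.0% of all genes. NDT80 was at 157.9 to 467.2 TPM with sfGFP-IME1, against 10.8 to 14.4 TPM with IME1. Where sfGFP-B112 was set against sfGFP-IME1 at 6 h, all 5 early genes were higher (median 1.01, beside 27.3% of all genes) and all 4 middle genes lower (median -2.69, beside 29.5%), and the 9 prospore membrane genes were lower with a median of -1.96, against 0.01 over all genes. Of the late genes SPS100, DIT1 and DIT2, all 3 were lower there. The part of these stage differences in the results was not tested.

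The level of each gene over all 74 conditions gives the span of its regulation. As the ratio of the highest to the lowest condition mean, SPO74 had the widest span, from 0.149 to 1313 TPM. SPO14 had the narrowest, from 17.7 to 381 TPM. SSP1 ranged from 0.146 to 606 TPM, SPO20 from 1.76 to 1225 TPM and DON1 from 9.51 to 3088 TPM. The lowest means of SPO74 and SSP1 rest on a few counts in each library. The highest mean was in IME1; UME6 at 6 h for SPO21, MPC54 and SPO14, and in the activator experiment with sfGFP-IME1 at 4 h for the other 6. Levels were normalized within each table, so these ranges compare tables only roughly.

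Over the 74 condition means of log2(TPM + 1), SPO21 and SPO74 followed each other closely (Pearson r = 0.94), as did DON1 and SPO20 (0.96), while MPC54 and its plaque partner SPO21 did so less (0.59) and MPC54 and ADY4 least (0.45). MPC54 had r = 0.91 with IME2 and 0.62 with NDT80, and SPO21 had 0.57 with IME2 and 0.94 with NDT80. Among 5592 genes, those nearest to MPC54 were SLZ1 (0.94), YGL081W (0.92) and AMA1 (0.92), and those nearest to SPO21 were YOR365C (0.97), SSP2 (0.96) and SPS18 (0.96). SPO74 lay nearest to SPS18 (0.97), SPO19 (0.97) and YOR365C (0.96), and SSP1 to PES4 (0.98), YFL012W (0.98) and GAS4 (0.98). ADY3 and DON1 had the same nearest gene, YSW1 (0.95 and 0.96). The next were SPO75 (0.92) and CDC23 (0.92) for ADY3 and ECM23 (0.96) and SMA1 (0.96) for DON1. SPO20 lay nearest to ECM23 (0.97), TEP1 (0.96) and YFL012W (0.96), SPO14 to PEX30 (0.95), SPO71 (0.95) and ATG3 (0.94), and ADY4 to APC5 (0.94), RTR2 (0.92) and BNR1 (0.92). These are descriptions over conditions that share strains, cultures and libraries, and no test was made.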

How the data were processed

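RNA-seq of 222 libraries of SK1 yeast in 74 conditions of 3 libraries was used, of which 220 entered. The submitters' processing notes name HISAT2, SAMtools, StringTie and kallisto. The authors deposited, for each of 4 experiments, estimated counts per gene from kallisto and TPM (transcript shares corrected for length) of the same libraries. The deposited estimated counts were rounded to whole numbers here. The deposited TPM were used as levels, without a test. edgeR 4.0.16 (R 4.3.3, limma 3.58.1) was fitted with TMM scaling after filterByExpr, with all libraries of an experiment in 1 quasi-likelihood fit and Benjamini-Hochberg adjustment over all 5488 to 5528 genes tested, and was tested on simulated data. DESeq2 1.42.0 was an alternative, beside others named in the closing section. Columns of fold changes made by the authors were not used.

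The 9 genes and the lists were chosen with earlier results of these data known. All 9 genes were tested in every comparison. Not every time point of each comparison is described in the text. Up to 4 genes of a list were named by the size of their change, beside UME6 and IME1, and 3 genes nearest to each member by Pearson r of log2(mean TPM + 1) over conditions with a highest mean of at least 10 TPM. SEC9, SPO73 and markers given as levels were named after their values were seen. The study calls the 3 replicates of each condition biological. Each table was fitted separately. Same-numbered libraries deviated together, with 3 pairs and every correlation above 0.1, in 9 of 116 comparisons.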

Additional observations from a re-analysis of the deposited data

Results flagged for a closer look

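In meiosis, 5 changes from 2 h differed between Ume6 depletion and control cells by the test of the difference itself (edgeR, adjusted over all genes). From 2 to 6 h SPO21 changed by -1.211 more in depletion than in control cells on the log2 scale, SSP1 by -1.351 and DON1 by -0.814. From 2 to 4.5 h MPC54 differed by -0.9674 (adjusted p = 0.039, beside 2.30% of all genes called lower), a call that was lost in 10 of the fits without 1 library. From 2 to 3 h ADY3 differed by 0.7797 (adjusted p = 0.023, beside 1.61% of all genes called higher), a call that was also lost in the fit of only the compared groups. No explanation was tested for these differences.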

How the results depend on the processing

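Of the 553 calls of the 9 genes, 548 held with RLE scaling, 552 without the filter on low counts, 549 with a replicate block and 546 with DESeq2. In fits of only the compared groups 521 of 552 held, and of 3316 fits of a call without 1 of its libraries 3054 kept it. With a block by culture all but 1 of the calls fitted that way held, and with the exchanged libraries kept 17 of 27 did. The direction was kept by every one of these calls except in ratios of TPM. There, SPO14 with sfGFP-B112 over sfGFP-IME1 at 6 h came to 0.0073 with a pseudocount of 1 and 0.0078 with 0.1, and SPO20 from 0 to 4 h in sfGFP-IME1; UME6-3V5, which holds the library of 44189 counts, came to -0.85 with 0.1.

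Counts of calls over a family of comparisons moved by over 1.5 times in these cases, each of few calls. With only the compared groups, meiotic depletion over control had 0 higher calls in place of 1, the difference between strains in the change from 2 h 0 higher in place of 1, the change from 0 h in the rescue strains 2 lower in place of 1, sfGFP-IME1 over IME1 0 higher in place of 2 (1 with DESeq2), T99N over UME6-3V5 1 higher in place of 0 (also 1 with RLE scaling and with DESeq2), and untethered B112 over IME1 1 higher in place of 0. With the replicate block by culture, the difference between strains had 7 lower calls in place of 4. With the exchanged libraries kept, UME6-3V5 over UME6 had 6 higher calls in place of 2. The cause was not tested.

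Leaving out 1 library at a time gave 11 to 13 higher calls for mitotic depletion (12 with all libraries), 0 to 1 higher and 8 to 11 lower for meiotic depletion (1 and 10), 0 to 1 higher for the difference between strains (1), 1 to 2 higher for UME6-3V5 over UME6 (2), 0 to 3 higher for sfGFP-IME1 over IME1 (2), 18 to 23 lower for T99N over UME6-3V5 (22), 0 to 1 lower for tethering of IME1 and of B112 (0), and 0 to 1 higher for tethered B112 over tethered IME1 (0).

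Of 116 comparisons, 9 had 3 same-numbered pairs with every correlation above 0.1, and in 16 each of 3 libraries correlated best with its own number. Comparisons with a left-out library had 2 pairs and were not counted. Among those 9 comparisons, the replicate block made SPO14 higher in depletion cells from 2 to 2.5 h of meiosis (adjusted p = 0.049) and ended the call of DON1 from 0 to 2 h with sfGFP-B112 (adjusted p = 0.054). The block by culture also called SPO74 (adjusted p = 0.022) and SPO14 (0.049) at 2 h and ADY4 (0.017) at 4 h against 0 h in the tethered strain, and SPO21 (0.02) and ADY4 (0.041) at 2 h against 0 h with untethered IME1. It changed no other call there. Elsewhere replicate numbers are shared by number only, and the block moved no count of calls by over 1.5 times except the one above. The low depth of 1 library limits values at 4 h with sfGFP-IME1; UME6-3V5. Genes under about 10 counts in a library carry wide errors. Examples are SPO74 at 0.5 h of the meiotic experiment and in several libraries with untethered B112 or IME1.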
